A study of Rattus norvegicus with 3 samples.

Results

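The genes described here encode the thiol-based antioxidant system of the rat pineal gland: the enzymes that make, use and recycle glutathione, the thioredoxins and glutaredoxins, the peroxiredoxins, and the superoxide dismutases and catalase that work beside them. They were found in the deposited table by gene symbol alone, as every symbol beginning Gpx, Gst (classes alpha, kappa, mu, omega, pi, theta or zeta), Txn, Prdx, Nxnl, Glrx or Sod, together with Gclc, Gclm, Gss, Gsr and Cat. This gave 63 genes, held in 66 entries, of 16629 genes and unnamed regions in all. The data are poly(A) RNA sequencing of adult Sprague-Dawley rats kept in 14 h of light and 10 h of dark, with 1 library per group: pineal glands at zeitgeber time 7 (hours after lights on, the day library), pineal glands at zeitgeber time 19 (the night library), and a pool of RNA from 15 other tissues at zeitgeber time 7 (the mixed-tissue library). The pool took equal RNA from the retina, 5 brain regions (cortex, midbrain, hindbrain, cerebellum and hypothalamus), the spinal cord, 2 endocrine glands (adrenal and pituitary), and liver, kidney, lung, small intestine, heart and skeletal muscle. No group had a treatment or an altered genotype by the labels, and the sources used here give no number of animals.

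Glutathione is a small cysteine-containing peptide that cells make with glutamate-cysteine ligase (Gclc and Gclm) and glutathione synthetase (Gss), and that glutathione reductase (Gsr) returns to its reduced form. Glutathione peroxidases and peroxiredoxins remove peroxides, glutathione S-transferases attach glutathione to electrophiles, and thioredoxin, kept reduced by thioredoxin reductases, passes electrons to peroxiredoxins and other protein thiols. The pineal gland makes melatonin by night, and its main cell, the pinealocyte, is related to the retinal photoreceptor, a cell type known for its dependence on this chemistry.

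The unit is FPKM, which divides a transcript's sequenced fragments by its length in kilobases and by the mapped fragments of its library, a level per length that allows genes to be set beside each other. Differences are log2 ratios of FPKM + 1 unless a plain FPKM ratio is named. A gene was compared where it reached 1 FPKM in at least 1 of the 2 libraries. The thresholds were 2-fold between the gland libraries and 4-fold between gland and mixed tissues, with no p-value attached. With 1 library per group there is no spread between replicates and no test, and the sequencing lane cannot be told apart from the group. The depth was estimated at 8.74 fragments per kb at 1 FPKM by day, 5.29 by night and 9.48 in the mixed tissues, so the night library had 60.5% of the depth of the day library. The bracketed 95% intervals take a transcript of 1 kb at these depths and cover counting error only. As a floor, 3 fragments on such a transcript correspond to 0.343 FPKM by day, 0.568 by night and 0.317 in the mixed tissues. The tissue label was checked against 8 pinealocyte markers, which summed to 8760 FPKM by day, 10141 by night and 350 in the mixed tissues.

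In the gland this system was led by Gpx4, the selenium-containing peroxidase that reduces lipid peroxides within membranes. Gpx4 stood at 854 FPKM by day, 666 by night and 103 in the mixed tissues, which made it the tenth most abundant transcript by day (rank 10 of all genes), and placed it at rank 16 by night and 322 in the mixed tissues. It supplied 36.8% of the summed FPKM of all 63 members by day and 31.1% by night, against 3.79% in the mixed tissues. Next by day came Sod1, the cytosolic superoxide dismutase (162 FPKM), Prdx2, a cytosolic peroxiredoxin (158), Sod3, the secreted superoxide dismutase (95.3), Txn1, the cytosolic thioredoxin (94.1), and Glrx3, a glutaredoxin that handles iron-sulfur clusters (87.8). By night Sod1 was at 166, Prdx2 at 161, Glrx3 at 113, Sod3 at 95.1 and Txn1 at 80.3. In the mixed tissues the highest member was Gpx3, the plasma peroxidase, at 394 FPKM, followed by Sod1 (211), Txn1 (142), Prdx2 (133) and Gsta3 (121), an alpha class transferase. The 63 members together held 1.11% of all FPKM by day, 0.9997% by night and 1.10% in the mixed tissues, and without Gpx4 they held 0.698%, 0.689% and 1.06%.

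**Figure D1:**
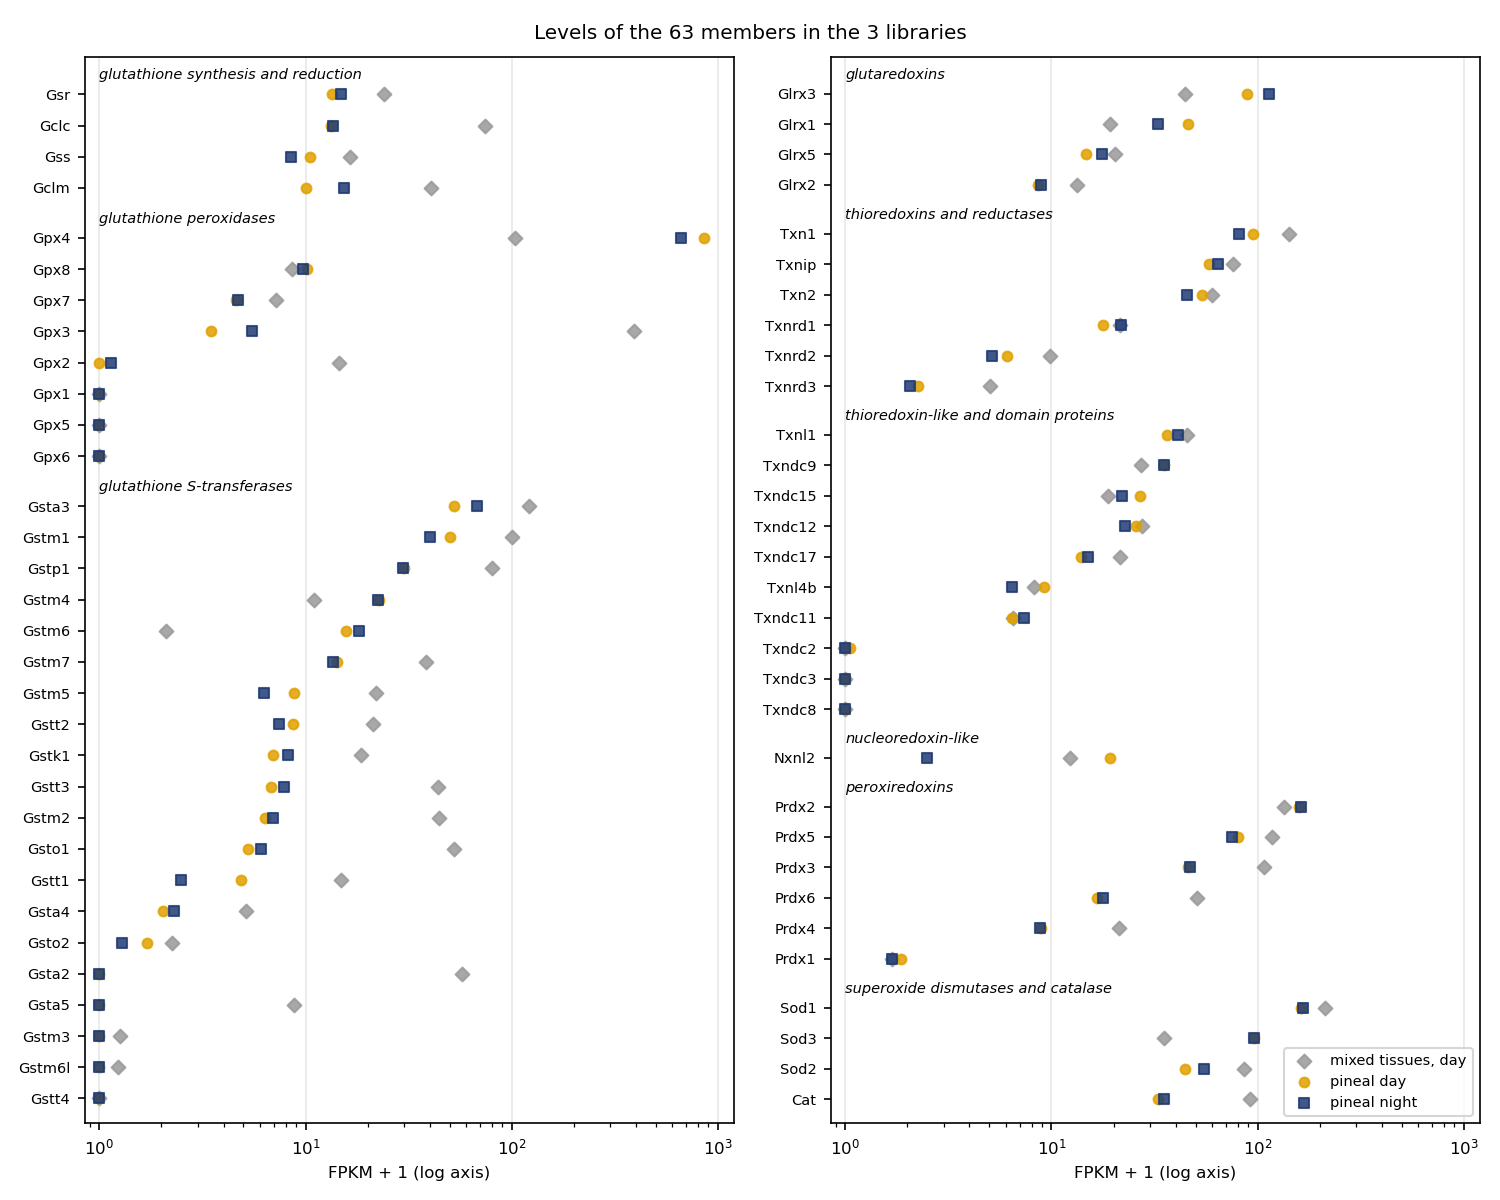
FPKM + 1 on a log axis for the 63 members, grouped by family, with circles for the pineal day library, squares for the night library and diamonds for the mixed tissues (1 library each, no error bars). Day and night symbols lie close together for most genes, Nxnl2 is the clear exception, and Gpx4 lies far to the right of its mixed-tissue value while Gpx3 lies far to the left.

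Of the 63 members, 49 reached 1 FPKM by day, 49 by night and 53 in the mixed tissues, and 30, 30 and 42 reached 10 FPKM. Another 10 stayed under 1 FPKM in every library and entered no comparison: Gpx1, Gpx5, Gpx6, Gstm3, Gstm6l, Gstt4, Prdx1, Txndc2, Txndc3 and Txndc8. Of these, 6 were listed at 0 throughout (Gpx1, Gpx5, Gpx6, Gstt4, Txndc3 and Txndc8). Gpx1 and Prdx1 encode peroxidases that most cells use. Gpx1 was placed on unassembled sequence of chromosome 16 and has 0 named copies in the reference. Prdx1 (0.868 FPKM by day, 0.692 by night, 0.684 in the mixed tissues) has 8 named copies there. The part of placement or of reads shared between copies in these values was not tested, and they are given only as listed. Named copies (pseudogenes or like genes with the same root symbol) exist for 14 members, Gpx4 among them with 4. The spans of Glrx2, Txndc11, Txndc12, Txnrd1 and Txnrd2 overlap another gene of the table, and strand was not used in the comparison of spans.

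By night, 48 of the 49 members compared lay within 2-fold of their day value. None was at least 2-fold higher, where 4.18% of all 9826 genes and regions compared were, and 1 was at least 2-fold lower, where 2.11% were. The median log2 ratio of the members was 0.02, against -0.11 over all genes compared. Above 0 were 27 of 49 members (55.1%), against 38.2% of all genes compared. Within 1.5-fold there were 45 of the 49 members (91.8%), against 80.8% of all genes compared. The members were also more abundant, with a median by day of 9.21 FPKM over all 63, against 2.29 over all 16629 genes and regions. The part of level in these shares was not tested.

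The member that differed was Nxnl2, a thioredoxin-like protein of photoreceptors from the family of the rod-derived cone viability factor (chr17:19922402-19927149, rn4). Its level was 18.2 FPKM by day [15.5 to 21.2], 1.49 by night [0.653 to 2.98] and 11.3 in the mixed tissues [9.25 to 13.6], a pool that includes retina. The day library was the highest of the 3 and the night library the lowest, and the intervals of the gland libraries do not overlap. The log2 ratio of night to day was -2.95, and the plain FPKM ratio of day to night was 12.2 [5.95 to 28.3]. Against the mixed tissues the gland was at a log2 ratio of 0.64 by day and -2.30 by night, and the night value was inside 4-fold with a pseudocount of 5 FPKM (-1.33) or with centred libraries (-1.94). Rod markers were low in both gland libraries (5 of 6 listed genes found, 18.2 FPKM in sum by day and 13.5 by night, with Nrl at 0 by night, against 1640 in the mixed tissues), and their part in the Nxnl2 difference was not tested. No other gene of the table overlaps its span.

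The stretch of 250 bases before the annotated start of Nxnl2 is shown because this gene carries the day to night difference. It is taken from RefSeq on build GRCr8 (chr17:14187596-14187845, minus strand) and is printed 5′ to 3′. It was searched on both strands for the core of the antioxidant response element (TGACNNNGC), the cAMP response element (TGACGTCA), the cone-rod homeobox site (TAATCC) and the E-box (CACGTG), and held 0 matches, so no letters are in capitals. Its GC content was 68.8%, against a median of 51.2% for the same stretch of all promoters in the table.
Nxnl2: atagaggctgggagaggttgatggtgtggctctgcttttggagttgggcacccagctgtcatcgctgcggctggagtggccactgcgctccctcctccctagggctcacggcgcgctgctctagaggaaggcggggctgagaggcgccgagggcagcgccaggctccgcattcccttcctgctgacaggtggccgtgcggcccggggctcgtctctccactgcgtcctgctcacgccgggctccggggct

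The next members in order of the night to day ratio were well inside 2-fold on the FPKM + 1 scale or close to it. Gstt1, a theta class transferase, was at 3.84 FPKM by day, 1.5 by night and 13.9 in the mixed tissues, a log2 ratio of -0.95 and a plain day to night ratio of 2.56 [1.17 to 6.43]. It passes 2-fold with a pseudocount of 0.1 FPKM (log2 -1.30). Gpx3 was at 2.47 by day and 4.53 by night (log2 0.67, plain ratio 1.83 [0.969 to 3.37]), and its interval includes 1. Gclm, the regulatory subunit of glutamate-cysteine ligase, was at 9.03 by day and 14.4 by night (log2 0.61, plain ratio 1.59 [1.15 to 2.21]), while the catalytic subunit Gclc was at 12.4 and 12.6 (log2 0.03).

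Small differences were also visible among abundant members, whose counting intervals are narrow. For 11 of the 49 members (22.4%, against 26.2% of all genes compared) the interval of the night to day ratio excluded 1: Gclm, Glrx1, Glrx3, Gpx4, Gsta3, Gstm1, Gstt1, Nxnl2, Sod2, Txn1 and Txn2. The share was near that of all genes. The median plain ratio of all genes compared was 0.915, and with that value in place of 1, a choice made after seeing the data, the count was 14 (28.6%, against 24.7%). Txn1, Txn2 and Gstm1 were then no longer among them, and Gpx3, Prdx2, Sod1, Txnip, Txnl1 and Txnrd1 were. Gpx4 had a plain night to day ratio of 0.780 [0.749 to 0.812]. The glutaredoxins differed in opposite directions, with Glrx1, the cytosolic form, at 44.9 by day and 32.0 by night (ratio 0.713 [0.592 to 0.856]), and Glrx3 at a ratio of 1.29 [1.16 to 1.43]. These intervals hold no variation between animals, so they compare these libraries and not day with night in general.

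By family, the peroxiredoxins were the most even between night and day. The 5 compared had log2 ratios between -0.09 (Prdx5) and 0.10 (Prdx6), and the 6 summed to 307 FPKM in either library. The superoxide dismutases and catalase lay between -0.003 (Sod3, at 95.3 and 95.1) and 0.30 (Sod2, the mitochondrial enzyme, at 43.5 and 53.9), with catalase at 31.9 and 34.0. The thioredoxins, their inhibitor and their reductases lay between -0.24 (Txn2, the mitochondrial thioredoxin, 52.5 and 44.3) and 0.28 (Txnrd1, the cytosolic reductase, 16.8 and 20.6), with Txnip, the thioredoxin inhibitor, at 57.1 and 63.6. The thioredoxin-like and domain proteins lay between -0.51 (Txnl4b, a homologue of a splicing factor, 8.15 and 5.42) and 0.19 (Txndc11, which works in the endoplasmic reticulum, 5.43 and 6.33). Among the 14 transferases compared the median log2 ratio was 0.06, with Gstt1 lowest and Gsta3 highest (51.3 by day, 66.9 by night, log2 0.38). Gss was at 9.50 by day and 7.52 by night, and Gsr at 12.5 and 13.8.

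**Figure D2:**
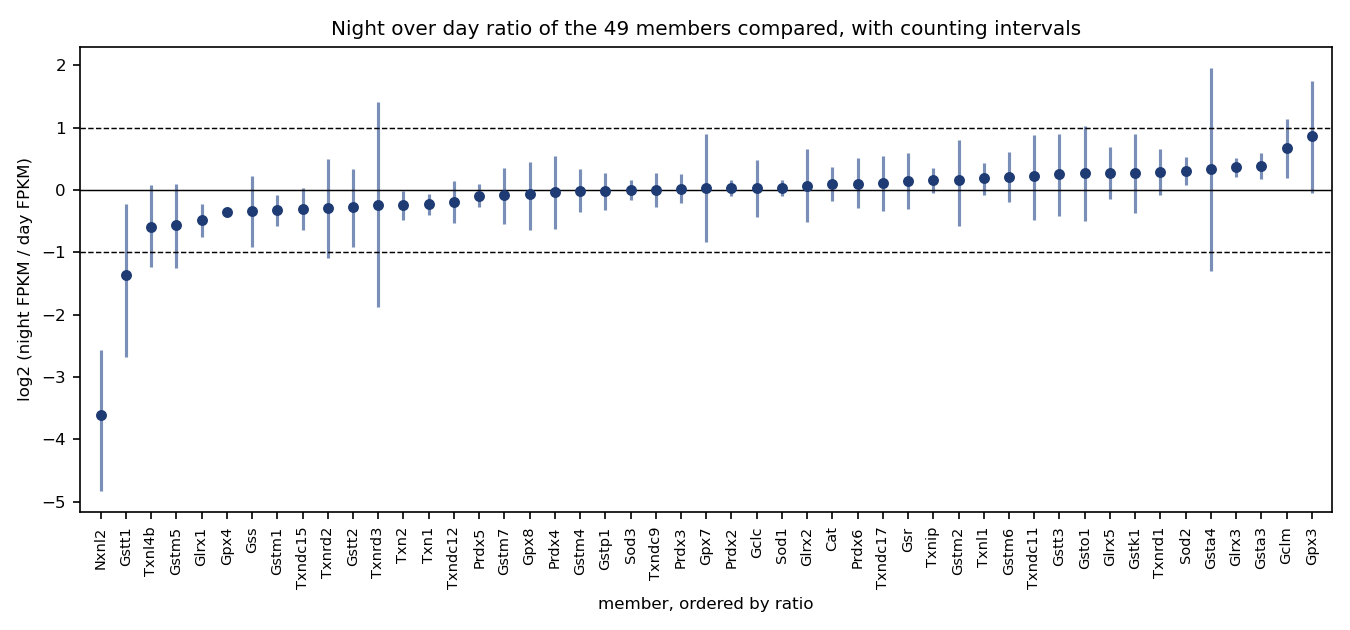
Plain night to day FPKM ratio on a log2 scale for the 49 members compared, ordered by ratio, where points are single libraries and lines are 95% counting intervals for a 1 kb transcript. The dashed lines mark 2-fold, Nxnl2 lies alone at the left (12.2-fold lower by night), Gstt1 is just past the line on this scale, and the rest lie within it.

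The summed markers of other cells of the gland were lower by night, though 7 single markers of these lists were higher (Hba-a2 was at 79.0 and 97.4 FPKM, and Pecam1, Pdgfra, Mag, Cx3cr1, C1qa and C1qb were the others). Mag, at 0.064 and 0.137, was under the floor in both gland libraries. Over all genes compared, 38.2% were above 0 and the median log2 ratio was -0.11. Single genes supplied much of some day sums: Slc1a2 (72.6 FPKM) for astrocytes, Cnp (18.2) for oligodendrocytes and Hbb (301) for erythroid cells. Astrocyte markers (5 of 6 found, none at 0) summed to 100.6 FPKM by day and 74.4 by night, fibroblast and meningeal markers (6 of 6, none at 0) to 242 and 180, oligodendrocyte markers (5 of 5, none at 0) to 30.0 and 16.1, and endothelial markers (5 of 6, Cldn5 at 0 in every library) to 21.1 and 17.6. Microglia and macrophage markers (7 of 7, none at 0) were at 63.4 and 58.8 and erythroid markers (4 of 5, none at 0) at 387 and 358. Their part in the members' differences was not tested, and in such bulk RNA fewer cells of a type and less RNA per cell cannot be told apart.

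Relative to the mixed tissues, most members were lower in the gland. Of 53 compared, 9 were at least 4-fold lower by day (17.0%, against 13.2% of all 11934 genes and regions compared) and 2 at least 4-fold higher (3.77%, against 2.29%). At 2-fold, 23 were lower (43.4%, against 28.9%) and 5 higher (9.43%, against 8.32%). The median log2 ratio was -0.65 for the members and -0.27 for all genes compared. By night, against the same pool, 10 members were at least 4-fold lower (18.9%, against 14.4%) and 2 higher (3.77%, against 3.09%), and the medians were -0.81 and -0.36. At 2-fold the night counts were 23 lower (against 31.2%) and 5 higher (against 8.99%). With each comparison centred on its median gene, the members' medians were -0.38 by day and -0.45 by night.

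**Figure D3:**
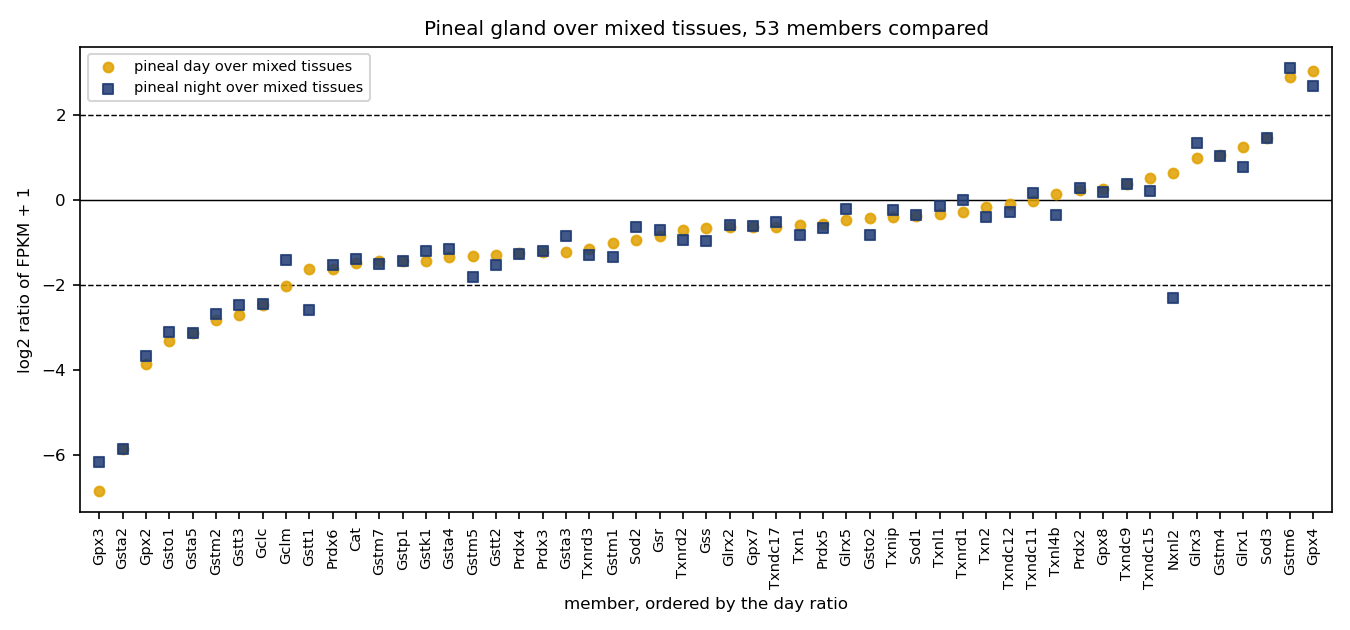
Log2 ratio of FPKM + 1 of the gland over the mixed tissues for the 53 members compared, ordered by the day value, with circles for day and squares for night (both against the same mixed-tissue library). The dashed lines mark 4-fold. Gpx4 and Gstm6 lie above the upper line at both hours, and Nxnl2 is the point where circle and square are furthest apart.

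Among the glutathione peroxidases, Gpx4 was higher in the gland and the secreted or gut forms were lower. For Gpx4 (chr7:11162520-11165318, rn4) the log2 ratio to the mixed tissues was 3.04 by day and 2.68 by night, or plain ratios of 8.30 [7.76 to 8.88] and 6.47 [6.03 to 6.95]. Its value sums 2 entries that begin at the same base. The longer was at 751 FPKM by day, 599 by night and 98.8 in the mixed tissues, and the shorter at 104, 67.5 and 4.09, so the shorter entry made up 12.1%, 10.1% and 3.97% of the gene. How fragments common to both were divided rests on the authors' software. Gpx3 (chr10:40311093-40319382), which the kidney releases into plasma, was at 2.47 by day and 4.53 by night against 394 in the mixed tissues, a log2 ratio of -6.83 and -6.16. Gpx2, the gastrointestinal form, was listed at 0 by day and at 0.135 by night against 13.5 (log2 -3.86 and -3.68, or -1.89 and -1.85 with a pseudocount of 5 FPKM). Gpx7 and Gpx8, which work in the endoplasmic reticulum, were nearer the pool, at 3.62 and 9.21 by day, 3.69 and 8.77 by night, and 6.20 and 7.56 in the mixed tissues.

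The genes of glutathione synthesis were lower in the gland at both hours. Gclc was at 12.4 FPKM by day, 12.6 by night and 73.1 in the mixed tissues (log2 -2.47 and -2.44, plain mixed to day ratio 5.92 [4.83 to 7.32]). Gclm was at 39.6 in the mixed tissues, a log2 ratio of -2.02 by day and -1.40 by night, and it was no longer 4-fold apart by day once the libraries were centred on the median gene (-1.74). Gss (15.5 in the mixed tissues, log2 -0.65 by day) and Gsr (23.2, log2 -0.84) were within 2-fold. All 4 were below 0 in either comparison, where 38.2% of all genes compared were above 0 by day and 34.6% by night.

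The glutathione S-transferases had a median log2 ratio of -1.42 by day over the 17 of 20 compared, and 15 of the 17 were below 0 at either hour. Of all genes compared, 38.2% were above 0 by day and 34.6% by night. By day 5 were at least 4-fold lower, 1 higher and 11 within 4-fold (over all genes 13.2% were lower and 2.29% higher). The transferases summed to 222 FPKM by day, 226 by night and 630 in the mixed tissues. Gsta2, an alpha class form abundant in liver, was listed at 0 in both gland libraries and at 56.7 FPKM in the mixed tissues, and Gsta5 was listed at 0 and 0 against 7.75 (inside 4-fold with a pseudocount of 5 FPKM, log2 -1.35). Gsto1, an omega class form, was at 4.25 by day, 5.11 by night and 51.5 (log2 -3.32 and -3.10). Gstt3 was at 5.76, 6.89 and 42.9 (log2 -2.70 and -2.48), and Gstp1, the pi class form, at 29.0, 28.8 and 79.6 (log2 -1.42 and -1.44). Gstk1, the kappa class form of mitochondria and peroxisomes, was at 5.96, 7.21 and 17.7, Gstt2 at 7.74, 6.44 and 20.3, and the low Gsta4 and Gsto2 at 1.04 and 0.694 by day against 4.16 and 1.26. Gsta3, the highest transferase of the gland (51.3 by day, with an interval that overlaps that of Gstm1 at 49.2), was also lower there than in the pool (121).

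The mu class held both directions within a single cluster of 8 genes over 155 kb of chromosome 2 (rn4). In chromosome order, Gstm5 was at 7.79 FPKM by day, 5.30 by night and 21.0 in the mixed tissues, Gstm7 at 13.3, 12.5 and 37.3, Gstm6 at 14.7, 17.1 and 1.11, Gstm2 at 5.33, 5.95 and 43.5, Gstm1 at 49.2, 39.2 and 99.9, and Gstm4 at 21.7, 21.5 and 9.96. Gstm6l and Gstm3 were listed at 0 in the gland and under 1 FPKM in the pool. Gstm6 (chr2:203504227-203509002) was thus higher in the gland, at log2 2.90 by day and 3.10 by night (plain ratios 13.3 [7.37 to 29.9] and 15.4 [8.38 to 34.8]), and Gstm4 was higher by 1.05 and 1.04. Between them lie Gstm2 (log2 -2.81 and -2.68) and Gstm1 (-1.01 and -1.33), which were lower. Members of this class resemble each other closely, so reads could be divided among them in error, and a pseudocount of 5 FPKM brought Gstm6 under 4-fold (1.69 by day, 1.86 by night). Gstm4 ends 41.5 kb before the start of Gnat2, the cone transducin gene. Gnat2 was at 777 FPKM by day, 618 by night and 6.35 in the mixed tissues. Ampd2, which lies between Gstm4 and Gnat2, was at 105, 55.1 and 16.9. Eps8l3, before Gstm5, was at 0.06, 0 and 3.61, and Gnai3, after Gnat2, at 24.6, 39.2 and 26.5.

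**Figure D4:**
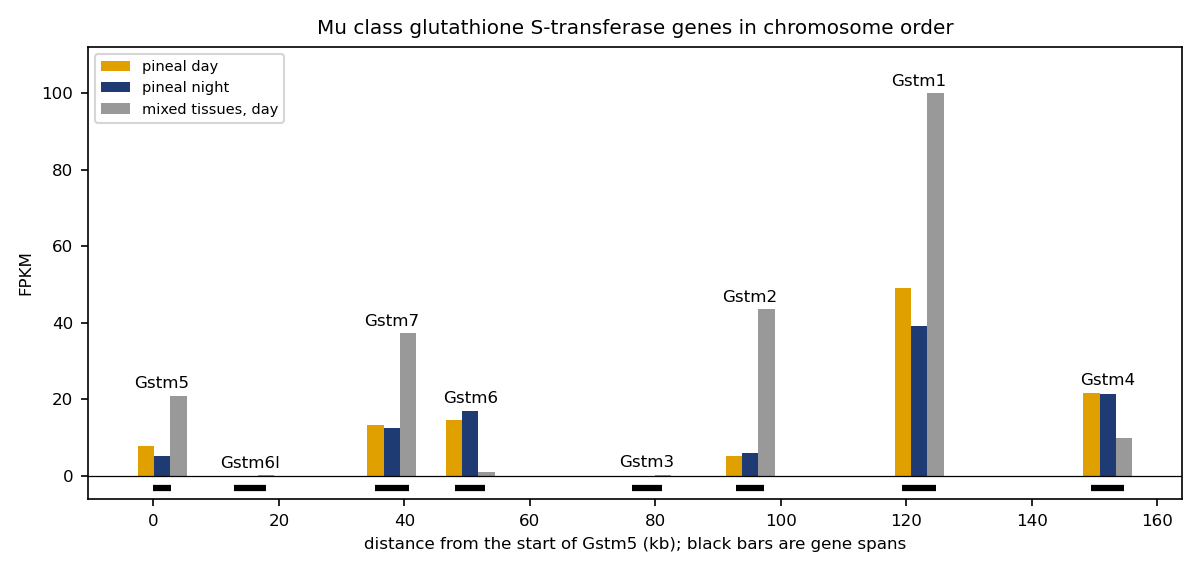
FPKM of the 8 mu class transferase genes against their distance in kb from the start of Gstm5, with bars for the pineal day, pineal night and mixed-tissue libraries (1 library each) and black bars below the axis for gene spans. Gstm6 (14.7 by day, 1.11 in the pool) and Gstm4 are taller in the gland, and the other 4 genes with visible bars are taller in the pool.

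Thioredoxins, their inhibitor and their reductases were modestly lower in the gland by day, all 6 below 0 with a median of -0.49. Over all genes compared by day the median was -0.27, and 38.2% were above 0. Txn1 was at 94.1 FPKM by day, 80.3 by night and 142 in the mixed tissues (log2 -0.59 and -0.81), Txn2 at 52.5, 44.3 and 59.1 (-0.17 and -0.41), and Txnrd1 at 16.8, 20.6 and 20.5 (-0.27 and 0.01). Txnrd2, the mitochondrial reductase, was at 5.09, 4.17 and 8.85 (-0.69 and -0.93). Txnrd3, a reductase known from testis, was low throughout (1.25, 1.05 and 4.01). The thioredoxin-like and domain proteins sat around the pool's level, with a median of -0.02 by day and a range from -0.63 (Txndc17) to 0.51 (Txndc15). Their levels by day, by night and in the pool were 35.3, 40.2 and 44.4 FPKM for Txnl1, 34.2, 34.2 and 26.1 for Txndc9, 25.9, 20.9 and 17.9 for Txndc15, 24.6, 21.6 and 26.4 for Txndc12, and 12.9, 14.0 and 20.5 for Txndc17. Txndc9 is a cofactor of the cytosolic chaperonin, and Txndc12 works in the endoplasmic reticulum.

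The peroxiredoxins split between Prdx2 and the rest. Prdx2 was at 158 FPKM by day, 161 by night and 133 in the mixed tissues (log2 0.24 and 0.27). The others compared were lower: Prdx6 at 15.6, 16.8 and 50.1 (log2 -1.62 and -1.52), Prdx4, the form of the endoplasmic reticulum, at 7.94, 7.78 and 20.2 (-1.25 and -1.27), Prdx3, the mitochondrial form, at 45.1, 45.8 and 106 (-1.22 and -1.19), and Prdx5 at 79.2, 74.3 and 117 (-0.55 and -0.64). Prdx2 is abundant in red cells, and the erythroid markers stood at 387 FPKM by day and 358 by night against 1303 in the mixed tissues, where Prdx2 was lower. The part of blood in its value was not tested.

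Sod3 and the glutaredoxins Glrx1 and Glrx3 were higher in the gland. Sod3 was at 95.3 FPKM by day and 95.1 by night against 34.0 (log2 1.46 at both hours, plain ratios 2.81 [2.46 to 3.20] and 2.80 [2.43 to 3.23]). Glrx3 was at 87.8 and 113 against 43.7 (log2 0.99 and 1.35), and Glrx1 at 44.9 and 32.0 against 18.3 (1.25 and 0.77). The mitochondrial glutaredoxins were slightly below the pool, Glrx2 at 7.58 and 7.90 against 12.4 and Glrx5, which serves iron-sulfur cluster assembly, at 13.7 and 16.6 against 19.4. Of the intracellular dismutases, Sod1 (162 and 166 against 211, log2 -0.38 and -0.34) and Sod2 (43.5 and 53.9 against 84.7, -0.95 and -0.64) were lower, as was catalase (31.9 and 34.0 against 90.5, -1.48 and -1.39).

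Most markers listed for the other organs of the pool were at or near 0 in the gland, though the hepatocyte markers Serpina1 and Ttr were not. Kidney tubule markers (4 of 4 found, with Umod, Slc34a1 and Aqp2 at 0 in both gland libraries) summed to 0.02 FPKM by day and 0 by night against 134 in the pool, intestinal markers (3 of 4, Fabp2 at 0) to 0.28 and 0.14 against 186, and lung markers (3 of 3, all at 0) to 0 and 0 against 2621. Of the hepatocyte markers (5 of 6 found) Alb, Fgb and Cyp2e1 were at 0 in both gland libraries and at 2030, 118 and 54.3 in the pool. Serpina1 was at 6.41 by day, 2.52 by night and 295 in the pool. The sum of that list was 522 by day, 609 by night and 3183 in the pool, nearly all of it in the gland from Ttr, which is not confined to liver. Adrenal, muscle and heart, and pituitary markers (4 of 4, 5 of 5 and 4 of 4) summed to at most 2.22 in either gland library and to 508, 3057 and 7745 in the pool. The part of single organs in the differences from the pool was not tested.

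Promoters of the members were searched for the same 4 motifs. The core of the antioxidant response element, the site bound by Nrf2 with a small Maf partner (TGACNNNGC, on either strand), was found in the 300 bases around the start (250 before, 50 after, RefSeq, GRCr8) of 16 of the 55 members with a promoter in the table (29.1%). It was found in 13.9% of the 12983 genes of the expression table that have a promoter there, and in 13.1% of all 27457 genes. The 16 were Gclm, Gpx2, Gsta2, Gsta3, Gsta5, Gstm5, Gstm7, Gstp1, Prdx1, Prdx4, Prdx5, Sod2, Txndc11, Txndc17, Txnl4b and Txnrd1. The E-box was found in 4 of 55 (7.27%, against 7.08% of all genes), the cone-rod homeobox site in 1 (1.82%, against 7.77%) and the cAMP response element in 1 (1.82%, against 2.00%). No overlap between these motifs was removed, and a match is a run of letters, not a measured site. The 12 members with an antioxidant response element core that could be compared had a median night to day log2 ratio of 0.05, and the 30 without had 0.03. Against the mixed tissues by day the medians were -1.25 for 15 members with the core and -0.59 for 31 without. The 15 include Gpx2, Gsta2 and Gsta5, which were listed at 0 in the gland by day. The same split was not made over all genes.

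The matches that lie wholly before the start of members at 5 FPKM or more by day are shown with 10 bases on each side, in capitals where the core or its reverse complement lies, 5′ to 3′ on the strand of the gene, because they let the flanks be compared.
Gclm (chr2:213031953-213031981, plus strand): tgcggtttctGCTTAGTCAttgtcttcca
Gstm5 (chr2:198219646-198219674, plus strand): caaggccaagTGACCACGCggagggcggg
Gstm5 (chr2:198219706-198219734, plus strand): tcagtcgcgtTGACCCCGCccacagcgtc
Gstm7 (chr2:198260315-198260343, minus strand): gaggctagatTGACACAGCctgtccgttc
Gstp1 (chr1:210769748-210769776, minus strand): tccactgtgtTGACTCAGCatccggggcg
Sod2 (chr1:50050185-50050213, minus strand): ggcgctgccgGCAGGGTCAgcgcctagct
Txndc11 (chr10:5022315-5022343, plus strand): tgtgaaaggcTGACGCGGCcgcgagtgct
Txnrd1 (chr7:22755964-22755992, minus strand): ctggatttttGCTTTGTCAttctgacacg
Of these, Gclm differed most between night and day (9.03 FPKM by day, 14.4 by night), and Gstp1 hardly at all (29.0 and 28.8).

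Other genes of the pathway, from 6 lists of 86 genes in all, were also mostly even between night and day. Of 76 found, 68 could be compared. Past 2-fold, 2 were higher at night (background 4.18%) and 0 were lower (background 2.11%), and the median log2 ratio was -0.09. The 2 were in the list of Nrf2 regulators and targets (17 of 19 found, 16 compared, 2 higher, 0 lower, median -0.01). Srxn1, the sulfiredoxin that restores peroxiredoxins after their cysteine has been over-oxidised, was at 5.39 FPKM by day [3.95 to 7.15], 23.0 by night [19.2 to 27.6] and 10.4 in the mixed tissues [8.40 to 12.6], so the night library was the highest of the 3 and the day library the lowest. Its log2 ratio of night to day was 1.91 and the plain ratio 4.27 [3.04 to 6.15], while the 5 peroxiredoxins compared, which do not include Prdx1, lay within 2-fold. Mafg, a small Maf partner of Nrf2, was at 12.4 by day, 27.7 by night and 12.7 in the mixed tissues (log2 1.10, plain ratio 2.24 [1.73 to 2.89], or log2 0.91 with a pseudocount of 5 FPKM).

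Other regulators in that list lay inside 2-fold. Nfe2l2, the gene of Nrf2 itself, was at 17.1 FPKM by day and 28.9 by night (log2 0.73, plain ratio interval 1.35 to 2.14). Bach1, a repressor at the same sites, was at 3.57 and 7.13 (0.83, interval 1.23 to 3.37). Keap1, which marks Nrf2 for degradation, was at 18.01 and 11.6 (-0.59, interval 0.470 to 0.869). Nfe2l1 was at 38.9 and 32.1 (-0.27, interval 0.679 to 0.991). These 4 intervals exclude 1, as did those of 26.2% of all genes compared, and that of Nfe2l1 includes 0.915, the median plain ratio of all genes. The other small Maf genes of the list had intervals that include 1. Mafk was at 3.57 and 4.91 (log2 0.37, interval 0.791 to 2.41), and Maff at 1.04 and 1.85 (0.48, interval 0.671 to 5.11). Of the classic targets, Nqo1 was at 5.93 and 4.28 (log2 -0.39) and Hmox1 at 5.52 and 3.89 (-0.42), and both counting intervals include 1. Against the mixed tissues 1 of 17 was at least 4-fold lower, Osgin1 (0.343 by day, 0.294 by night, 11.0 in the pool), and 0 were higher, against 13.2% and 2.29% of all genes by day. Osgin1 was inside 4-fold with a pseudocount of 5 FPKM (-1.58 by day, -1.60 by night).

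Of the 9 compared in the list of methionine sulfoxide reductases and thiol oxidases, 0 were past 2-fold between night and day, and 2 stood 4-fold or more above the pool in the day library (the background was 2.29%). Qsox1, a sulfhydryl oxidase of the secretory pathway, was at 62.8 FPKM by day, 126 by night and 9.16 in the mixed tissues. Its night to day log2 ratio of 0.99 is just under 2-fold (plain ratio 2.01 [1.79 to 2.25]), and it was past 2-fold with a pseudocount of 0.1 FPKM or with centred libraries (1.10). Against the pool its log2 ratios were 2.65 by day and 3.64 by night. Msrb2, a mitochondrial methionine sulfoxide reductase, was at 61.7 by day, 57.5 by night and 11.4 in the pool (2.34 and 2.24, the latter 1.93 with a pseudocount of 5 FPKM). Pdia6 was listed at 0 in all 3 libraries.

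**Figure D5:**
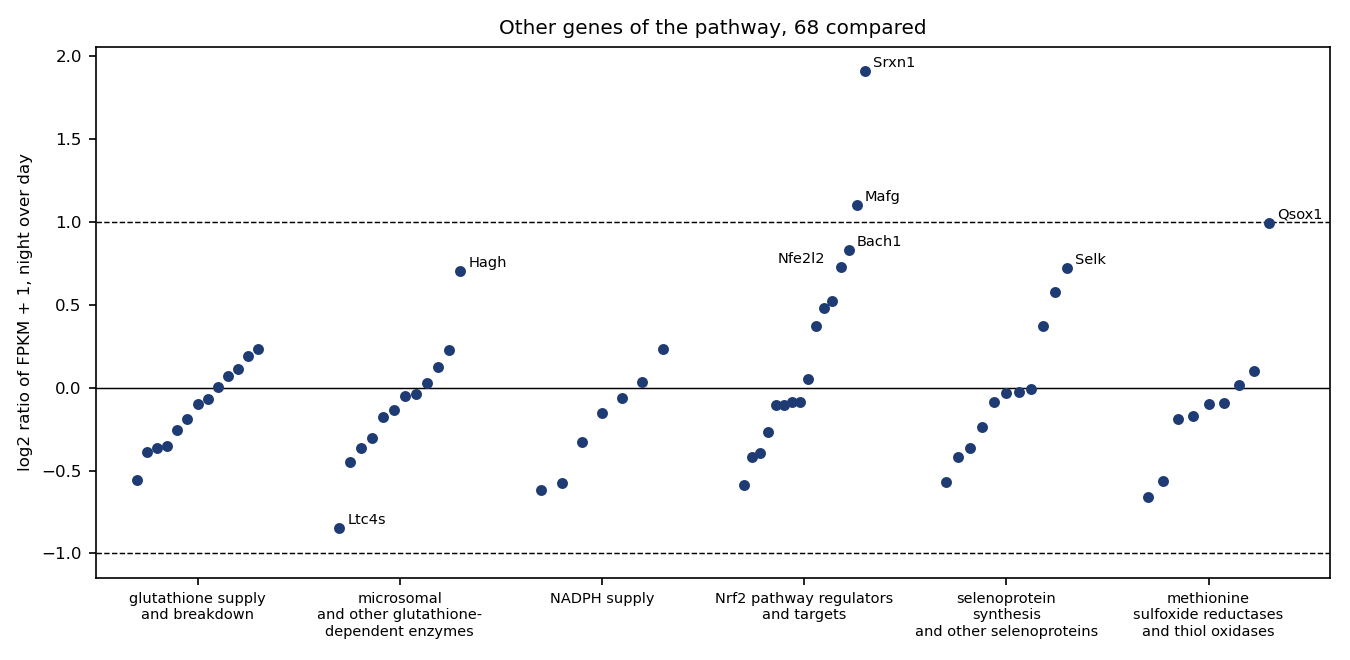
Night to day log2 ratio of FPKM + 1 for the 68 pathway genes compared, in their 6 lists, each point a gene and each list ordered by ratio. The dashed lines mark 2-fold, Srxn1 (1.91) and Mafg (1.10) lie above the upper line, Qsox1 (0.99) lies just under it, and no gene lies below the lower line.

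In the remaining lists 0 genes were past 2-fold between night and day, though Ltc4s, a microsomal enzyme of leukotriene synthesis, was with a pseudocount of 0.1 FPKM (log2 -1.96). Ltc4s was at 1.25 FPKM by day and 0.247 by night, under the night floor of 0.568. The interval of its plain night to day ratio [0.0035 to 1.03] includes 1. By day 7 genes of these lists were past 4-fold lower than the pool and 0 higher, where over all genes 13.2% were lower and 2.29% higher. They were Cth (0.412 FPKM by day, 0.237 by night, 33.2 in the pool), which makes cysteine from cystathionine, and Dpep1, a peptidase of glutathione breakdown in kidney (0, 0 and 18.1), among 15 genes of glutathione supply and breakdown compared by day. Among 13 other glutathione-dependent enzymes they were the microsomal transferases Mgst1 (13.3, 12.8 and 193) and Mgst2 (1.05, 0.871 and 35.7). Among 7 enzymes that supply NADPH it was Idh2, the mitochondrial isocitrate dehydrogenase (18.8, 12.3 and 103), while Taldo1, an enzyme of the pentose phosphate pathway, was at 154, 148 and 63.2. Among 11 selenoprotein genes they were Sepp1, the plasma selenium carrier (49.1, 48.4 and 437), and Selm (11.4, 10.6 and 75.9). The cystine transporter subunit Slc7a11 was at 7.85, 5.93 and 4.32, and its partner Slc3a2 at 46.6, 53.3 and 44.7.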

How the data were processed

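The values are FPKM computed by the authors and read here as deposited, with the unit per the file headers. Per the submitters' processing notes, TopHat 1.3.1, Cufflinks 1.2.0 and build rn4 were used. Their options, and the treatment of reads with several map positions, were not given in the sources used here, and both affect gene families with near-identical copies. Per the labels' protocols, each library was made from 10 µg of total RNA by poly(A) selection, random priming and 15 cycles of PCR, and run in 1 lane with paired reads of 51 bases.

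All 51267 values of the series table equalled those of the single-sample files (51267 compared). Entries of a symbol were summed (17089 entries, 16629 genes and regions). Ratios are log2 of FPKM + 1, for genes at 1 FPKM or more in either library. Depth was estimated from 1192 olfactory receptor gene models of 800 to 1100 bases, whose smallest values were taken as 1 fragment. There were 20, 4 and 17 such models by day, night and in the mixed tissues, so the night value rests on few models. The next step lay at 1.97, 1.76 and 1.98 times the first, where whole fragments would give 2-fold. The night depth is thus the least certain of the libraries, and the night floor and intervals depend on it. Intervals are exact Poisson (levels) and exact conditional binomial (ratios) at 95%, for a transcript of 1 kb, since transcript lengths are not in the table. PCR duplicates, if kept, would make them too narrow. Calculations used Python 3.11.15, pandas 2.3.3, numpy 2.4.6 and scipy 1.17.1. The calls and intervals were tested on simulated Poisson counts at the same depths and 1 kb length, with 4-fold changes in genes at 20 FPKM or more. That simulation cannot check the 1 kb length, the depth estimates, PCR duplicates or genes at lower levels.

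Members and lists were chosen with earlier results of these data known. Any member may be named. Of the pathway lists, genes past the fold at 5 FPKM or more in the higher library and the 4 highest others of a list may be named. The other pathway genes named (Nqo1, Hmox1, Bach1, Keap1, Mafk, Maff, Slc7a11, Ltc4s and Pdia6) were chosen after their values were seen. So were the genes near the mu class cluster (Gnat2, Ampd2, Eps8l3 and Gnai3). Named copies and promoters come from RefSeq on GRCr8, matched by symbol or gene ID (55 of 63 members had a promoter). No GRCr8 coordinate was set against an rn4 coordinate. Alternatives tried were other pseudocounts and filters, centred libraries, the highest entry of each symbol, and members without named copies or overlapping genes.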

Additional observations from a re-analysis of the deposited data

How the results depend on the processing

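With 1 library per group no library could be left out. No paired analysis was possible because each group has 1 library. Between night and day, Nxnl2 was past 2-fold under each of the 7 alternatives run. The count of members at least 2-fold lower was 2 with a pseudocount of 0.1 FPKM (Gstt1 joined), and the members' median was 0.13 with centred libraries. For the gland by day against mixed tissues, the count at least 4-fold higher was 1 with a pseudocount of 5 FPKM and 0 among the 36 members without named copies or overlapping genes, an alternative chosen after seeing the data that leaves out Gpx4 and Gstm6 by construction. The count lower was 6 instead of 9 with a pseudocount of 5 FPKM (without Gclm, Gpx2 and Gsta5). The median was -0.77 with a pseudocount of 0.1 FPKM, -0.53 with 5 FPKM and -0.38 with centred libraries. For the gland by night against mixed tissues, the count higher was 1 with a pseudocount of 5 FPKM and 0 among those 36, the count lower was 6 with a pseudocount of 5 FPKM, and the median was -0.60 with that pseudocount, -0.62 with no filter, -0.45 with centred libraries and -1.07 among those 36. A larger pseudocount narrows the ratios of low genes by construction. For single genes, 1443 of 1464 values stayed on their side of the fold, 21 crossed it and 0 past the fold turned direction. The median log2 ratio of all genes was -0.11 for night against day, -0.27 for the gland by day and -0.36 for the gland by night against mixed tissues.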

Other observations

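Gclm was below Gclc by day (9.03 and 12.4 FPKM) and above it by night (14.4 and 12.6), so the order of the subunits of glutamate-cysteine ligase differed between the gland libraries. In the mixed tissues Gclc was the higher (73.1 and 39.6). The counting intervals of the subunits overlapped by day and by night.

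Hagh, which hydrolyses the glutathione thioester left by glyoxalase, was at 28.4 FPKM by day and 46.8 by night (plain ratio 1.65 with a counting interval of 1.38 to 1.97). That interval excludes 1, as did those of 26.2% of all genes compared. Glo1, the enzyme before it, was at 85.3 and 75.5, and its interval (0.781 to 1.0002) includes 1.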
